A study of Mus musculus with 36 samples.

Results

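Lungs of mice with type 1 diabetes (T1D) that breathed ambient fine particulate matter (PM), the group T1DE, were compared with lungs of T1D mice that breathed filtered air, the group T1DC. These are 6 of the 36 libraries of the study, 3 in each group, chosen by their labels. The animals were male wild-type C57BL/6J mice, made diabetic with streptozotocin injected on 5 consecutive days and kept on a normal diet. Streptozotocin destroys the insulin-producing beta cells of the pancreas, so diabetes was set off by a chemical and did not arise spontaneously. Exposure began at 14 weeks of age and lasted 4 weeks, around the clock, in individually ventilated cages that drew either outdoor air or air cleaned by HEPA filters. Lungs of mice on a normal diet and not diabetic (ND) and with obesity from a high-fat diet (DIO), each under PM (NDE, DIOE) or filtered air (NDC, DIOC) and 3 libraries a group, served to show where the T1D lungs differed. The labels do not say that libraries came from separate animals, so p-values measure the spread between libraries.

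Every cell carries molecular chaperones that keep proteins folded. When unfolded proteins accumulate in the cytosol, heat shock factor HSF1 binds heat shock elements, short repeats of GAA and TTC in gene promoters, and raises the Hsp70, Hsp90, Hsp110 and J-domain families together. Inhaled particles are also known to act through oxidant stress, the aryl hydrocarbon receptor, and inflammatory cells recruited to the airspace, and each of these pathways has its own set of target genes.

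The lungs were whole pieces of tissue. Scgb1a1, the secretoglobin of club cells, was at 36627 to 51979 FPKM in T1DE and 46270 to 49136 FPKM in T1DC; FPKM counts fragments scaled to transcript length and to the library's mapped total. Depth, estimated from the steps between low FPKM values, was 16.1 to 19.3 M reads in T1DE and 18.5 to 19 M reads in T1DC. T1DE3 stood apart: 1796 genes were listed at 0, against 3098 and 3316 in the other T1DE libraries and 3158 to 3292 in T1DC, and 41.9% of 1085 odorant and vomeronasal receptor genes were above 0, against 11% and 7.28% in T1DE1 and T1DE2 and 5.53 to 7.56% in T1DC. Outside T1D, DIOE1 (2030 genes at 0, 33.9% of receptor genes above 0) and DIOC3 (2629 and 25.3%) had the same trait. Tissue make-up also differed. The summed FPKM of 17 squamous epithelium genes was 10.9 in T1DE1, 1137 in T1DE2 and 21.6 in T1DE3, against 870 to 1816 in T1DC. For 16 skeletal muscle genes it was 59.8, 1678 and 60.6 in T1DE1, T1DE2 and T1DE3, against 499 to 1564 in T1DC, and for 10 brown adipocyte genes 27.8, 857 and 144 (T1DE), against 43.5 to 60.7 (T1DC). Only T1DE2 therefore had squamous and muscle sums within or near the T1DC range, and only T1DE1 lacked the high brown adipocyte sum.

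Few genes differed between T1DE and T1DC beyond the spread between lung libraries, and the 3 largest rises among the called genes were of chaperones. The 2 airs were given in separate cages, so an effect of PM and one of the cage cannot be told apart. With limma on log2(FPKM + 1) over 13973 genes, a gene was called at a Benjamini-Hochberg adjusted p under 0.05 and a fold over 1.5. It called 23 genes (0.165% of those tested), of which 16 were higher (0.115%) and 7 lower (0.0501%) in T1DE. Without a fold threshold, 747 genes (5.35%) had an unadjusted p under 0.05 and a higher level, and 901 (6.45%) a lower one; by direction alone 49.2% of genes were higher. The median log2 fold change of all genes was -0.0042, so neither direction prevailed. The same test called 0 genes in NDE against NDC and 0 in DIOE against DIOC (with an unadjusted p under 0.05, 56 higher and 175 lower genes in ND, and 164 higher and 186 lower in DIO). The T1D count leaned on single libraries. It was 0 without T1DC1, 6 without T1DC2 or without T1DE1, 5 without T1DE2 and 11 without T1DE3, and 10 to 31 when a library of another group was left out (10 without DIOE2, 11 without NDC2, 12 without NDC3, 13 without NDE1, 14 without DIOC2 or NDC1). All 23 genes kept their direction in each of these fits, but this was fixed in advance. Their T1DE and T1DC libraries did not overlap, so leaving out 1 library could not turn a sign.

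Among the called genes 4 encode chaperones. Hsph1 (chromosome 5, 149616843 to 149636498, GRCm38), the Hsp110 that releases ADP from Hsp70, was at 26.1, 38.1 and 32.3 FPKM in T1DE1, T1DE2 and T1DE3, against 6.89, 11.9 and 11.6 FPKM in T1DC1, T1DC2 and T1DC3. Its log2 fold change was 1.59 (SE 0.30, limma adjusted p = 0.0491). Dnaja1 (chromosome 4, 40722468 to 40734965), a J-domain partner of Hsp70, was at 93.9, 134 and 104 FPKM in T1DE, against 33.67, 40.09 and 47.99 FPKM in T1DC. The lowest T1DE library was thus above the highest T1DC library, and also above the 80.3 FPKM that was the highest of the other 15 lungs, with a log2 fold change of 1.42 (SE 0.24, limma adjusted p = 0.0304).

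Dnajb1 (chromosome 8, 83608175 to 83612653), the inducible Hsp40, was at 34.98, 43.83 and 55.34 FPKM in T1DE, against 16.7, 18.1 and 19.1 FPKM in T1DC, a log2 fold change of 1.25 (SE 0.19, limma adjusted p = 0.0208). Hspa8 (chromosome 9, 40801276 to 40805202), the constitutive Hsc70 and the most abundant of the 4, was at 817, 981 and 912 FPKM in T1DE, against 432, 447 and 544 FPKM in T1DC, a log2 fold change of 0.93 (SE 0.18, limma adjusted p = 0.0491). For none of the 4 did the T1DE and T1DC libraries overlap, as was so for 905 genes in this direction (6.48% of those tested). An exact permutation test of 3 against 3 libraries cannot give a p below 0.1. The call of each was lost in some fits: Hsph1 and Hspa8 without any 1 of the 6 T1D libraries, Dnaja1 without any but T1DC3, and Dnajb1 without any but T1DE1 and T1DC3. All 4 calls, as all 23, were also lost in a fit on the 6 T1D libraries alone and in the fit with 3 covariates for tissue make-up.

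**Figure D1:**
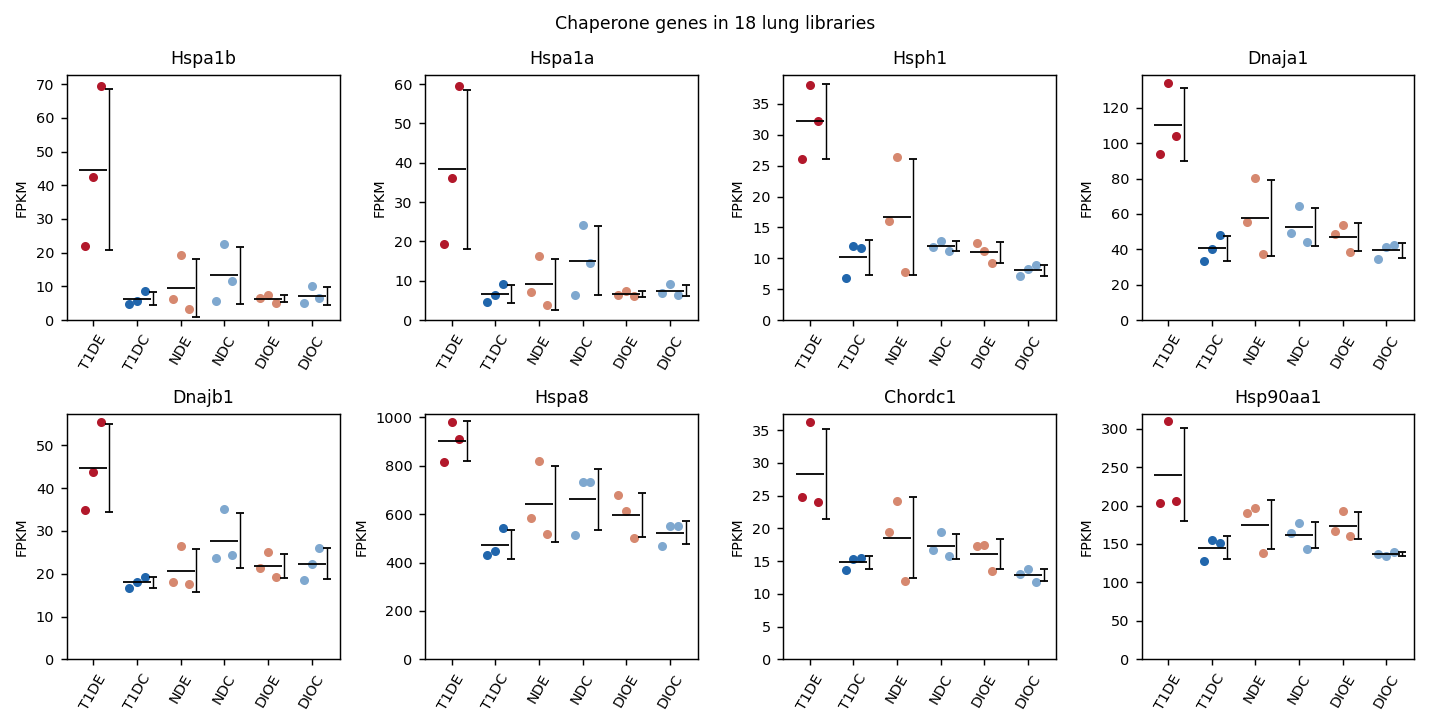
FPKM of 8 chaperone genes in the 18 lung libraries (points), by group, with the group mean (line) and SD (bar beside it, n = 3). The 3 T1DE points lie above the 3 T1DC points in every panel; for Hspa8 they run from 817 to 981 FPKM in T1DE and from 432 to 544 FPKM in T1DC.

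Among the chaperones the largest fold belonged to the stress-inducible Hsp70 genes, which did not pass the adjusted threshold. Hspa1b (chromosome 17, 34956429 to 34959238) was at 22.1, 42.5 and 69.5 FPKM in T1DE, against 4.90, 5.67 and 8.54 FPKM in T1DC, a log2 fold change of 2.52 (SE 0.54, limma adjusted p = 0.0701). Hspa1a, its neighbour on chromosome 17 (34969359 to 34972156), was at 19.28, 36.02 and 59.59 FPKM in T1DE, against 4.52, 6.49 and 9.09 FPKM in T1DC, a log2 fold change of 2.26 (SE 0.48, limma adjusted p = 0.0692). These paralogs are nearly identical, so how reads were shared between them is uncertain; their sum was 83.0 ± 44.0 FPKM in T1DE and 13.1 ± 4.18 FPKM in T1DC (SD, n = 3 each). T1DE libraries differed widely from each other here, and the lowest of them, T1DE1 at 41.3 FPKM for the sum, was below NDC2 at 46.6 FPKM.

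Across 24 heat shock chaperones and their partners, 22 were higher in T1DE (49.2% of all genes were), with a median log2 fold change of 0.58 against -0.0042 for all genes. limma called 4 of the 24, and 17 were higher at an unadjusted p under 0.05 (5.35% of all genes were), with 0 lower. In 17 the libraries did not overlap (6.48% of all genes in this direction), and in 7 every T1DE library exceeded every one of the other 15 lung libraries, as was so for 1.86% of genes tested. The list was chosen with earlier results of these data known, and its members were measured in the same 6 T1D libraries. Counts over it, here and below, are therefore not independent evidence. Genes outside the naming rule are named in this paragraph and the next so that every member is accounted for. The Hsp90 genes were at 204, 310 and 206 FPKM in T1DE against 128, 156 and 152 FPKM in T1DC for Hsp90aa1 (log2 fold change 0.70, limma adjusted p = 0.0893), and at 540, 593 and 588 FPKM in T1DE against 375, 408 and 353 FPKM in T1DC for Hsp90ab1 (0.60, adjusted p = 0.0522). Partners of Hsp90 had like differences. They were 0.87 for Chordc1 (adjusted p = 0.0893), 0.83 for Cacybp (0.0669), 0.57 for Stip1, the adaptor between Hsp70 and Hsp90 (0.0875), 0.51 for the peptidyl-prolyl isomerase Fkbp4 (0.0491, under the fold threshold) and 0.43 for Ahsa1, which stimulates the Hsp90 ATPase (0.0579), all as log2 fold changes with limma adjusted p.

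J-domain proteins Dnajb4 (log2 fold change 0.60, limma adjusted p = 0.157) and Dnaja4 (0.48, adjusted p = 0.117) and the Hsp70 exchange factor Bag3 (0.40, adjusted p = 0.114) also had T1DE libraries wholly above T1DC. The chaperonin of the mitochondrial matrix, made of Hspd1 (0.59, adjusted p = 0.305) and Hspe1 (0.36, adjusted p = 0.585), did so for Hspd1 alone. Hspa4 (0.19), Hspa4l (0.25), Cryab (0.09), Hspb1 (0.0013), Ubb (-0.03) and Hspbp1 (-0.07) had overlapping libraries and adjusted p from 0.461 to 0.999. The small heat shock proteins Cryab and Hspb1 and the polyubiquitin gene Ubb, abundant in every lung, were thus not among those that separated the groups. Of the 17 with an unadjusted p under 0.05, 16 kept it whichever T1D library was left out (Hspd1 did not), and the list's median was between 0.49 and 0.64.

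**Figure D2:**
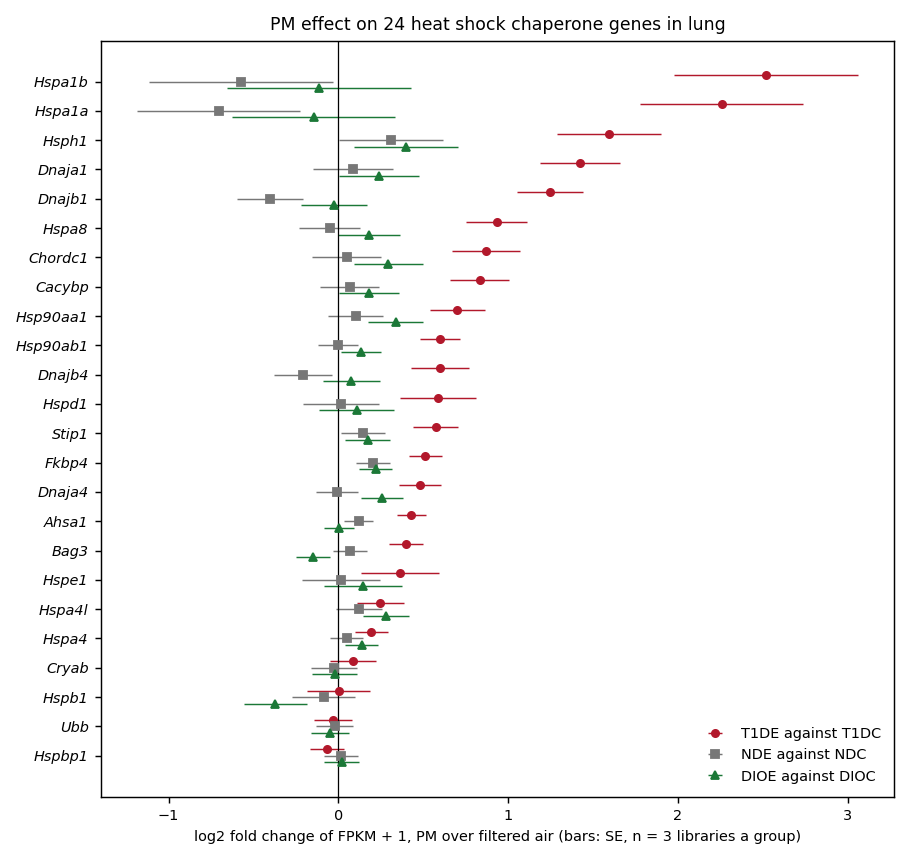
Log2 fold change of FPKM + 1, PM over filtered air, with SE, for 24 chaperone genes in T1D (circles), ND (squares) and DIO (triangles) lungs, 3 libraries a group. Values for T1D run from -0.07 (Hspbp1) to 2.52 (Hspa1b), and those for ND and DIO lie nearer to 0 for the genes at the top.

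Heat shock elements were looked for in the promoters, read as RefSeq gives them for GRCm38.p6, from 250 bases before to 50 bases after a transcript start. Some genes have several starts and so several windows, which may lie inside the outer limits of the gene, and a gene was counted if any of its windows held a match. A 2-unit element was taken as GAANNTTC or TTCNNGAA and a 3-unit element as GAANNTTCNNGAA or TTCNNGAANNTTC, each of which is its own reverse complement or that of the other, so both strands were covered; every 3-unit match holds 2-unit matches. Of the 24 chaperone genes 20 had a promoter in the table, and 12 of these held a 2-unit match, against 1564 of the 11144 tested genes with a promoter. By window these were 13 of 28 for the chaperones and 1678 of 14164 for all. A 3-unit match was found in 4 of the 20, Hsph1, Chordc1, Hspd1 and Hspe1, and in 0.511% of all. Hspd1 and Hspe1 face away from each other and their windows overlap, so their matches are the same bases. The list was made of known heat shock genes, so its excess of matches describes the list and not an effect of PM. Hspb1 and Hspe1, whose T1DE and T1DC libraries overlapped, were among the 12 with a match. Of the 16 called higher 3 of 13 held a 2-unit match (Hsph1, Dnaja1 and Zbtb2), or 23.1% against 14% of all, and Dnajb1 held none. The windows below, for Hsph1 1 of 2 and for Dnaja1 1 of 3, were those with the most matches, and show a 3-unit match in Hsph1 (chr5:149636266-149636565, minus strand) and Chordc1 (chr9:18292017-18292316, plus strand) and a 2-unit match in Dnaja1 (chr4:40722218-40722517, plus strand) and Hspa1b (chr17:34959189-34959488, minus strand), in capitals, 5′ to 3′ along the gene.
Hsph1: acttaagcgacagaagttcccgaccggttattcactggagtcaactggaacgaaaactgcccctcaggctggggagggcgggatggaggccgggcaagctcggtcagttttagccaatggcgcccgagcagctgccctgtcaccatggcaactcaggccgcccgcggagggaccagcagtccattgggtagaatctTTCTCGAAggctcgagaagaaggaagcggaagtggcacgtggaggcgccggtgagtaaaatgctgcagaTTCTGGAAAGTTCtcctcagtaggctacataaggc
Chordc1: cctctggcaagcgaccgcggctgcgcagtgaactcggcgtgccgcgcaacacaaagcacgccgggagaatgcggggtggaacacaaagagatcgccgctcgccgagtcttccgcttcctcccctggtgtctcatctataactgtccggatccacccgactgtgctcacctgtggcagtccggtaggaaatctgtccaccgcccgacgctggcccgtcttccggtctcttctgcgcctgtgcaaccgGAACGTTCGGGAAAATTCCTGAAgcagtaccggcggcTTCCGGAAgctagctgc
Dnaja1: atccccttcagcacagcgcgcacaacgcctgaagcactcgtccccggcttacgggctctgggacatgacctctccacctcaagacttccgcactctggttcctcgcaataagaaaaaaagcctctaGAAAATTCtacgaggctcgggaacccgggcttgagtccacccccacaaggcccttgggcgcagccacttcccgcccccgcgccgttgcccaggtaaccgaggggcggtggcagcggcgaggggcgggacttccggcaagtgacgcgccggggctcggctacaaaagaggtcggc
Hspa1b: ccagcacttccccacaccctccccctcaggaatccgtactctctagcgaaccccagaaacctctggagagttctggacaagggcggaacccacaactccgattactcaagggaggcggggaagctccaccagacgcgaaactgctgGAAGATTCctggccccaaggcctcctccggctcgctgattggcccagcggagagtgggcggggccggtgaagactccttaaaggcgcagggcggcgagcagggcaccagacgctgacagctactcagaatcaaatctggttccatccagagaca
Capitals mark every 2-unit match, alone or within a 3-unit match. In Chordc1 3 overlapping 3-unit matches make 1 long repeat that begins at base 247 of the window, where the transcript starts at base 251, and a separate 2-unit match begins at base 284. In Hsph1 the 3-unit match begins at base 266, after that transcript start, and a 2-unit match at base 197 lies before it. A match describes the letters only; no binding was measured.

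The other 12 genes called higher are not in the chaperone list. Zbtb2, a zinc finger repressor, was at 12.03, 12.09 and 13.32 FPKM in T1DE, against 6.03, 6.99 and 6.93 FPKM in T1DC (log2 fold change 0.82, SE 0.10, limma adjusted p = 0.00873). Erf, the ETS repressor that is exported from the nucleus when ERK phosphorylates it, was at 29.97, 24.85 and 23.84 FPKM in T1DE, against 13.99, 14.29 and 16.51 FPKM in T1DC (0.77, SE 0.10, adjusted p = 0.00873). Hexim1, which holds the elongation factor P-TEFb inactive, was at 41.11, 46.4 and 47.28 FPKM in T1DE, against 23.00, 26.29 and 32.86 FPKM in T1DC (0.71, SE 0.11, adjusted p = 0.014). With these stood Klf16, a zinc finger factor (0.76), Jmjd6, a lysyl hydroxylase of splicing factors (0.67), Ints6, a subunit of the Integrator complex (0.69), and the little described Ccdc117 (0.86) and Tex30 (0.75), with limma adjusted p from 0.00955 to 0.0491.

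Slc38a2, a sodium-coupled carrier of neutral amino acids that cells raise when starved of them, had the largest rise outside the chaperones. It was at 78.9, 95.2 and 82.3 FPKM in T1DE, against 30.99, 36.18 and 49.25 FPKM in T1DC, and no other lung exceeded T1DC3 (log2 fold change 1.14, SE 0.18, limma adjusted p = 0.0244). Eda2r, a receptor of the tumour necrosis factor family and a p53 target, was at 4.39, 4.50 and 3.98 FPKM in T1DE, against 1.99, 1.60 and 2.64 FPKM in T1DC, and at 0.48 to 1.09 FPKM in the 12 ND and DIO lungs (0.79, SE 0.14, adjusted p = 0.0356). T1DE was thus the higher of the T1D groups, and both T1D groups were above all the others. Fam212a, an inhibitor of the kinase Pak4 (0.90, adjusted p = 0.0328), and Cdc42ep2, an effector of the GTPase Cdc42 (0.63, adjusted p = 0.0421), complete the 16. For 12 of the 16, every T1DE library was above all 15 other lungs, as in 1.86% of genes tested. The 16 were called for high T1DE values, so this count is not separate evidence. Ankrd37, an ankyrin repeat gene induced by hypoxia, was not called: it was at 11.2, 8.53 and 7.13 FPKM in T1DE, against 4.29, 3.32 and 3.85 FPKM in T1DC (1.03, adjusted p = 0.0617).

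Sik1 had the largest fall of the 7 genes called lower. This salt-inducible kinase, itself a CREB target, restrains the coactivators of CREB. It was at 19.86, 16.02 and 19.12 FPKM in T1DE, against 41.9, 37.6 and 43.6 FPKM in T1DC and at least 23.5 FPKM in every other lung (log2 fold change -1.12, SE 0.18, limma adjusted p = 0.0244). Others were lower in level. Tbcc, a tubulin folding cofactor, was at 4.79 to 6.32 FPKM in T1DE and 8.77 to 9.20 FPKM in T1DC (-0.61, adjusted p = 0.00955), Coa4, an assembly factor of cytochrome c oxidase, at 3.15 to 4.15 and 5.83 to 5.96 FPKM (-0.59, adjusted p = 0.0467), and Wdr5b, an intronless relative of Wdr5, at 0.88 to 1.45 and 2.22 to 3.23 FPKM (-0.82, adjusted p = 0.0483). In 5 of the 7 every T1DE library was below all 15 other lungs, as in 1.07% of genes tested, though the 7 were called for low T1DE values. A430105I19Rik (-0.62) and Tmem125 (-0.60), of which little is known, had limma adjusted p of 0.0421 and 0.0433.

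**Figure D3:**
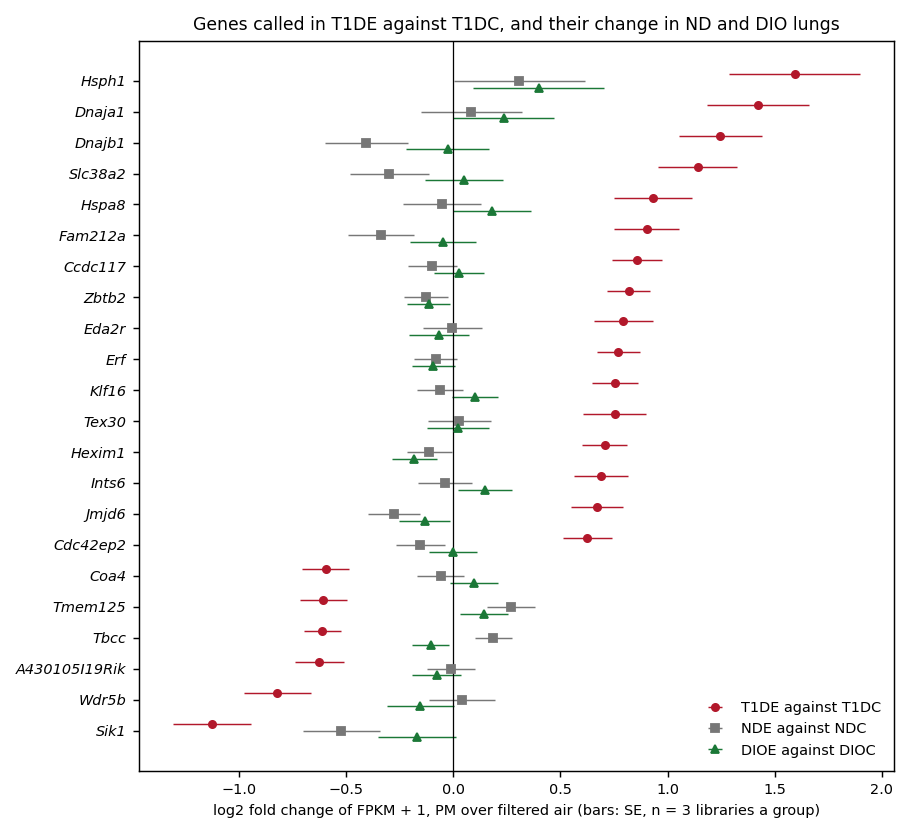
Log2 fold change of FPKM + 1, PM over filtered air, with SE, for 22 of the 23 genes called in T1DE against T1DC (circles), and for the same genes in ND (squares) and DIO (triangles) lungs, 3 libraries a group. T1D values run from -1.12 (Sik1) to 1.59 (Hsph1); the genes were chosen for them.

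Whether PM acted differently in T1D lungs was tested as a difference of PM effects, T1D minus ND and T1D minus DIO. Both differences use the same T1D libraries as the comparison above, so the 3 are not independent. In T1D minus ND limma called 1 gene (0.00716%), Ccdc71, and in T1D minus DIO it called 0 (427 higher and 450 lower genes at an unadjusted p under 0.05). The chaperones did not pass. Dnajb1 came nearest, with a difference of 1.65 (SE 0.27, limma adjusted p = 0.0632) from ND and 1.27 (SE 0.27, adjusted p = 0.323) from DIO. Zbtb2 had 0.95 (SE 0.14, adjusted p = 0.0532) and 0.93 (SE 0.14, adjusted p = 0.115), and Slc38a2 1.44 (SE 0.26, adjusted p = 0.0779) and 1.09 (SE 0.26, adjusted p = 0.364), each from ND and from DIO. At an unadjusted p under 0.05, 16 of the 24 chaperones were higher in T1D minus ND (3.75% of all genes were) and 0 lower (2.3% of all). In T1D minus DIO 12 were higher (3.06% of all) and 0 lower (3.22% of all). The list's own medians were 0.58 in T1D, 0.015 in ND and 0.14 in DIO, where 0 and 1 of the 24 were higher at an unadjusted p under 0.05 (0.401% and 1.17% of all genes were). In ND lungs 1 library of each air was high: Hsph1 was at 26.4 FPKM in NDE2, against 16.03 and 7.75 FPKM in NDE1 and NDE3, and Hspa1a at 24.1 FPKM in NDC2, against 6.49 and 14.6 FPKM in NDC1 and NDC3.

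Other stress lists had medians nearer to 0. The 8 subunits of the cytosolic chaperonin TRiC were all higher in T1DE, but with a median log2 fold change of 0.12; Cct4 (0.28), Cct5 (0.26) and Cct8 (0.22) had an unadjusted p under 0.05 (5.35% of all genes were higher at this p), and limma called 0 of the list. Of 20 chaperones of the endoplasmic reticulum 13 were higher, with a median of 0.029 and 0 called; 1 of the 20 had an unadjusted p under 0.05, Dnajb9 (0.28), a share near the 5.35% of all genes, while the central Hspa5 had 0.18 (adjusted p = 0.568). Integrated stress response genes went both ways, with 1 of 20 called (Slc38a2); an unadjusted p under 0.05 was reached by 4 upward (5.35% of all genes) and 5 downward (6.45% of all genes). Its transcription factor Atf4 was at 131, 161 and 137 FPKM in T1DE, against 86.2, 99.5 and 108 FPKM in T1DC (0.54, limma adjusted p = 0.111), whereas its targets Slc7a5 (-0.42, adjusted p = 0.182) and Ddit4 (-0.85, adjusted p = 0.217) were lower, with no overlap of libraries. Of 8 heat shock factors and regulators 0 were called, and Dedd2 (0.44) alone had an unadjusted p under 0.05.

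Immediate early genes, which answer growth factors and handling within minutes, were lower in T1DE in 20 of 24, with a median of -0.47. limma called 0 of them, and with an unadjusted p under 0.05 there were 9 below T1DC (6.45% of all genes) and 0 above. Klf2, a shear-responsive factor of endothelium, was at 164, 121 and 153 FPKM in T1DE, against 262, 304 and 312 FPKM in T1DC (-1.01, SE 0.23, limma adjusted p = 0.0857). Zfp36, which destabilises cytokine mRNA, was at 71.5, 64.1 and 74.2 FPKM in T1DE, against 127, 97.1 and 114 FPKM in T1DC (-0.67, adjusted p = 0.0879). The antiproliferative Btg2 (-0.56, adjusted p = 0.24) and the phosphatase gene Dusp1 (-0.55, adjusted p = 0.259) had the same separation. The list had medians of -0.35 in ND and -0.15 in DIO lungs, below 0 in each state. Errfi1, a feedback inhibitor of the EGF receptor listed with glucocorticoid targets, was at 54.1, 47.6 and 64.3 FPKM in T1DE, against 93.9, 94.7 and 117 FPKM in T1DC (-0.87, adjusted p = 0.0996). Of the CREB genes beside Sik1, Creb1 (0.38, adjusted p = 0.137) and Crem (0.61, adjusted p = 0.229) were higher and the clock gene Per1 (-0.58, adjusted p = 0.219) lower, without overlap and short of a call.

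Interferon genes had lower levels in T1DE, while 17 inflammatory cytokines and chemokines had a median of 0.026. All 25 interferon-stimulated genes had a lower mean (median -0.50); 10 had an unadjusted p under 0.05 (6.45% of all genes in this direction), and 3 had T1DE libraries wholly below T1DC, a share near the 7.96% of all genes. Rsad2, an antiviral enzyme, was at 9.43, 9.03 and 6.38 FPKM in T1DE, against 13.01, 11.6 and 35.91 FPKM in T1DC (-1.03, limma adjusted p = 0.193), and Oasl1 at 2.25, 1.62 and 2.99 FPKM in T1DE, against 3.79, 4.50 and 8.43 FPKM in T1DC (-0.96, adjusted p = 0.149). T1DC3 was the highest library: its summed FPKM over the list was 1360, beside 757 and 504 in T1DC1 and T1DC2 and 462 to 551 in T1DE1 to T1DE3. Without T1DC3 the list's median was -0.21, with 25 of 25 still lower. Interferon gamma targets had a median of -0.45, with the MHC class II regulator Ciita at 3.17, 2.79 and 5.22 FPKM in T1DE, against 7.69, 6.61 and 6.18 FPKM in T1DC (-0.76, adjusted p = 0.232), H2-DMb1 (-0.54, adjusted p = 0.232) and the tryptophan-degrading Ido1 (-1.19, adjusted p = 0.231). limma called 0 members of either list.

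Neutrophil genes also had lower levels in T1DE, with 0 called. Their medians were below 0 in ND and DIO lungs too. There 0 of the 13 tested were lower at an unadjusted p under 0.05. The calprotectin subunits S100a8 and S100a9 were at 38.69, 63.54 and 33.00 and at 35.84, 61.98 and 27.97 FPKM in T1DE, against 109, 207 and 277 and 104, 226 and 306 FPKM in T1DC (log2 fold changes -2.06 and -2.26, limma adjusted p = 0.402 and 0.354). Of 13 neutrophil genes tested 9 had T1DE libraries wholly below T1DC (7.96% of all genes did), among them Retnlg (-1.65), and 4 had an unadjusted p under 0.05 (6.45% of all genes). The median was -0.98, beside -0.54 in ND and -0.68 in DIO. In bulk tissue fewer cells of a type and less RNA per cell cannot be told apart. Il1b, an interleukin of neutrophils and macrophages, was at 5.62, 10.3 and 6.19 FPKM in T1DE, against 15.6, 31.3 and 23.2 FPKM in T1DC (-1.53, adjusted p = 0.454). Summed neutrophil FPKM was 127 to 292 in T1DE and 327 to 818 in T1DC. It was 281 to 407 in NDE, against 219.8, 262 and 2139 in NDC1, NDC2 and NDC3, so only NDC3 was above the NDE libraries. In DIO it was 387 to 1589 in DIOE and 575 to 2742 in DIOC, with DIOE1 (1589) above DIOC2 (575) and DIOC3 (820). The T and NK cell list was mixed, with 13 of 22 higher and a median of 0.091. In it 3 genes were lower at an unadjusted p under 0.05 (6.45% of all genes). These were the natural killer cell genes Ncr1 (-0.65, limma adjusted p = 0.119), Prf1 (-0.70, adjusted p = 0.344) and Klrb1c (-0.53, adjusted p = 0.334).

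No gene of the xenobiotic and oxidant defence lists was called. The aryl hydrocarbon receptor Ahr was at 20.1, 11.8 and 11.9 FPKM in T1DE, against 14.96, 16.15 and 12.16 FPKM in T1DC (-0.02, limma adjusted p = 0.974), and its 9 tested genes had a median of -0.019. Cyp1a2, a cytochrome that it induces, was at 1.01, 2.0 and 0.78 FPKM in T1DE, against 0.27, 0.06 and 0.06 FPKM in T1DC (0.97, adjusted p = 0.287), apart in every library but near the lower limit of measurement. Of 21 NRF2 targets 17 were lower, with a median of -0.12, 0 called and 3 lower at an unadjusted p under 0.05 (6.45% of all genes). The sulfiredoxin gene Srxn1 (-0.53, adjusted p = 0.216), Pgd of the pentose phosphate pathway (-0.42, adjusted p = 0.176) and Gclc, the glutathione synthesis enzyme (-0.62, adjusted p = 0.334), were among them, with the highest value of each in T1DC3. The cytosolic superoxide dismutase Sod1 was at 589, 679 and 593 FPKM in T1DE, against 558, 527 and 504 FPKM in T1DC (0.23, adjusted p = 0.323). Medians were -0.10 over 26 glutathione genes, 0.090 over 27 phase I enzymes and 0.13 over 16 phase II enzymes and transporters, with 0 called. The xenobiotic genes that the study itself measured (27 tested, median 0.15) and its MAPK and TREM1 genes (25 tested, median -0.28) were chosen by the study on these animals and are not independent evidence of a direction; limma called 0 of either.

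Further lists had few single genes apart. Of 22 p53 and senescence genes Eda2r was called, Phlda3 (0.43, limma adjusted p = 0.243) and Zmat3 (0.38, adjusted p = 0.228) were higher without overlap, 11 of the 22 were lower, and the median was 0.039. With an unadjusted p under 0.05 there were 3 above (5.35% of all genes) and 4 below (6.45% of all genes). Cholesterol and fatty acid synthesis genes were lower in 20 of 23 (median -0.16), the epoxidase Sqle at 15.6, 11.9 and 11.5 FPKM in T1DE against 17.6, 22.3 and 18.1 FPKM in T1DC (-0.54, adjusted p = 0.149). Insulin receptor substrates went apart, Irs1 higher (0.36, adjusted p = 0.314) and Irs2 lower (-0.53, adjusted p = 0.376), in a list with a median of 0.0087. Elastin, Eln, was at 99.4, 109 and 110 FPKM in T1DE, against 137, 194 and 171 FPKM in T1DC (-0.64, adjusted p = 0.309). In the clock list Cry1 (0.45, adjusted p = 0.152) and Nr1d1 (-0.71, adjusted p = 0.312) were apart in opposite directions. The macrophage marker Adgre1 was at 7.25, 12.8 and 10.4 FPKM in T1DE, against 14.2, 9.42 and 5.40 FPKM in T1DC (0.12, adjusted p = 0.922), and Scgb1a1 had -0.14 (adjusted p = 0.844). The nuclear receptor genes Nr1i2 and Nr1i3 were under the expression filter, at 0.38 to 0.77 and 0.13 to 0.15 FPKM in T1DE and 0.45 to 0.70 and 0 to 0.14 FPKM in T1DC.

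**Figure D4:**
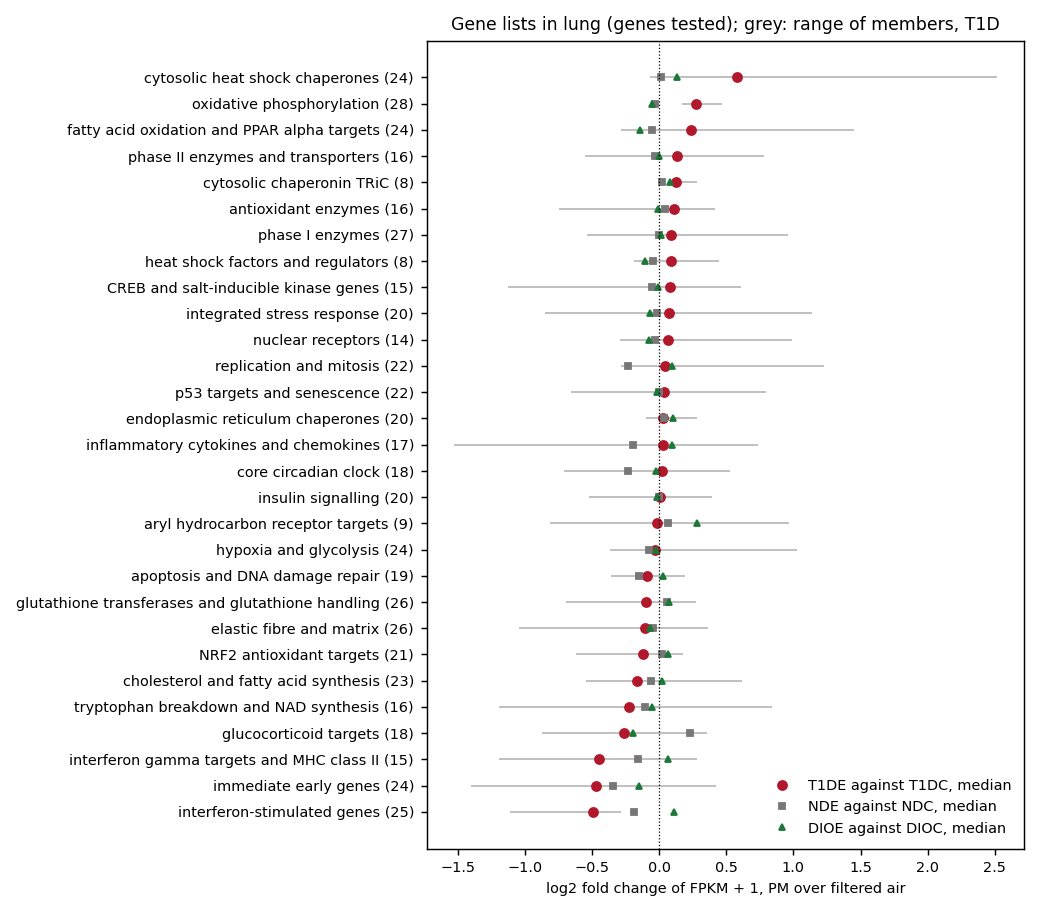
Median log2 fold change of FPKM + 1, PM over filtered air, over the tested genes of 29 lists (number tested in brackets) in T1D (circles), ND (squares) and DIO (triangles) lungs; the grey line spans the members in T1D and the dotted line is the median of all genes. Chaperones lie highest at 0.58 and interferon-stimulated genes lowest at -0.50.

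Genes of squamous epithelium, skeletal muscle and brown fat had larger fold changes than the chaperones, with wide spread between libraries. Crct1 was listed at 0, 45.6 and 0.09 FPKM in T1DE1, T1DE2 and T1DE3, against 114, 51.7 and 51.6 FPKM in T1DC, and Sprr3 at 0, 29.03 and 0 FPKM in T1DE, against 68.7, 39.4 and 43.7 FPKM in T1DC. These and Lor, Lce3a, Lce3f, Asprv1 and Tgm3 are cornified envelope genes of squamous epithelium, with log2 fold changes of -4.21 to -2.19 and limma adjusted p from 0.323 to 0.417; by Crct1, Sprr3 and Lor, T1DE2 was close to T1DC while T1DE1 and T1DE3 were near 0. Krt13, a keratin of the same epithelium, was at 0.54, 404 and 0.26 FPKM in T1DE, against 799, 413 and 339 FPKM in T1DC. Squamous genes were lower in 14 of 14 tested and muscle genes in 15 of 15 (medians -3.08 and -2.16). Thermogenic fat went the other way through T1DE2 and T1DE3: Ucp1, the uncoupling protein of brown fat, was at 0.10, 373 and 33.04 FPKM in T1DE, against 0.10, 0.07 and 0.17 FPKM in T1DC, and Cidea at 1.76, 126 and 21.8 FPKM in T1DE, against 1.94, 2.22 and 3.82 FPKM in T1DC. All 28 oxidative phosphorylation genes were higher in T1DE (median 0.27, 0 called), with Cyc1 at 48.4, 128 and 73.4 FPKM in T1DE, against 56.3, 54.7 and 55.4 FPKM in T1DC, and fatty acid oxidation genes had a median of 0.24, with Acadm at 36.5, 140 and 61.8 FPKM in T1DE, against 40.82, 41.05 and 37.03 FPKM in T1DC. In both lists the high library was T1DE2, which also held the brown adipocyte genes; their part in the result was not tested.

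The chaperone level was set beside these scores library by library, as mean log2 values about the average of the 18 lungs. Chaperone scores were 0.31, 0.70 and 0.56 in T1DE1, T1DE2 and T1DE3, against -0.33, -0.14 and -0.13 in T1DC and -0.35 to 0.24 in the 12 other lungs. Squamous scores were -2.70, 1.81 and -2.19 in T1DE1, T1DE2 and T1DE3, against 1.33 to 2.13 in T1DC. Muscle scores were -1.70, 2.05 and -1.82 in T1DE1, T1DE2 and T1DE3, against 0.62 to 2.07 in T1DC. Brown adipocyte scores were -1.66, 2.22 and 0.19 in T1DE1, T1DE2 and T1DE3, against -1.33 to -1.12 in T1DC. Within T1DE the brown adipocyte and chaperone scores had the same order, lowest in T1DE1 and highest in T1DE2. With the muscle and squamous score as a covariate limma called 199 genes, 168 higher and 31 lower, and 13 of the 24 chaperones. With brown adipocyte and hepatocyte scores added it called 0 genes, and the median of the chaperone list was 0.51, with 13 of 24 higher at an unadjusted p under 0.05. The share of all genes at that p in this fit is not given here. Single libraries and covariates scored on the same lungs cannot tell tissue make-up from air. The part of make-up in the chaperone difference was not tested.

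**Figure D5:**
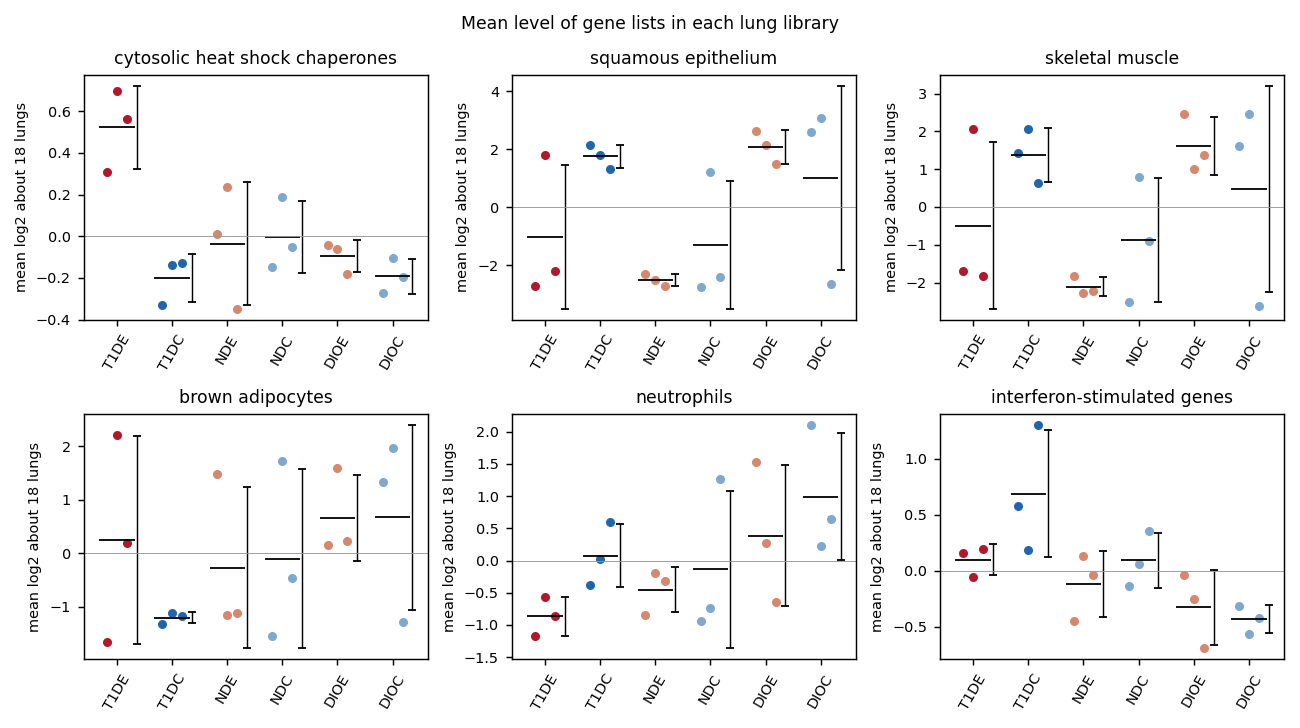
Mean log2(FPKM + 1) of 6 gene lists in each of 18 lung libraries, about the mean of all 18 (points), with group mean (line) and SD (bar, n = 3). Chaperone scores of T1DE (0.31 to 0.70) lie above those of every other library, while squamous, muscle and brown adipocyte scores divide the T1DE libraries among themselves.

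Liver libraries of the same groups were read for the chaperones as a description, with no test; the labels do not say whether lung and liver of 1 number came from 1 mouse. Hspa1b was at 29.21, 40.98 and 49.03 FPKM in T1DE livers, against 2.35, 3.03 and 1.62 FPKM in T1DC livers. Hsph1 was at 21.3, 20.1 and 23.8 FPKM in T1DE livers, against 6.04, 10.8 and 2.93 FPKM in T1DC livers, and Hspa8 at 1044, 905 and 1082 FPKM in T1DE livers, against 522, 579 and 527 FPKM in T1DC livers. In 17 of the 24 chaperones the T1DE livers were wholly above T1DC livers, as in 12.9% of the 10806 genes measured there. Of the 16 genes called higher in lung 15 were measured in liver and 12 were wholly above. Slc38a2 was not among them, at 24.04, 22.86 and 30.75 FPKM in T1DE livers, against 27.81, 32.98 and 47.86 FPKM in T1DC livers. Of the 7 genes called lower in lung 6 were measured in liver and 2 were wholly below, as in 3.3% of the genes measured there.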

How the data were processed

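RNA of frozen lung was extracted with TRIzol, selected by oligo-dT and sequenced on BGISEQ-500. Reads passed SOAPnuke before the authors aligned them to GRCm38 by Bowtie2, with RSEM for the gene estimates; the files they deposited hold 1 FPKM value per gene and library, written to 2 decimals, for 20098 genes. Tool versions, library strand and gene models: not given in the sources used here. Read counts were not used. Because FPKM keeps no counts, a linear model replaced the count test the authors ran.

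From these values log2(FPKM + 1) was computed, with no further scaling. The 13973 genes that reached 1 FPKM in 3 of the 18 lung libraries were kept. A linear model of the 6 groups (limma 3.58.1, R 4.3.3, eBayes with trend) took its spread from all 18 libraries. Tests were two-sided with Benjamini-Hochberg adjustment over all genes tested in each comparison. Fold changes are of FPKM + 1, which understates changes of low genes. The fit was tested on simulated data with noise independent between genes, so tissue make-up shared by many genes was not covered. The depth estimate was tested on data simulated with the same shortening of transcripts that it assumes. With full transcript lengths it gave 15.4 to 18.5 M reads in T1DE. RefSeq (GRCm38.p6) gave coordinates for 20043 genes, matched by gene identifier, and promoters.

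Genes named are those called, up to 4 of each list with the smallest p, the 8 largest changes in each direction among genes with an unadjusted p under 0.05, libraries apart and 5 FPKM or more in the higher group, and Adgre1, Scgb1a1, Ahr, Nr1i2 and Nr1i3; exceptions are the remaining chaperones and, chosen after their values were seen, genes of the closing section. Some genes that the rule names are not reported here. The comparison and the lists were chosen with earlier results of these data known. Alternatives were a pseudocount of 0.1 FPKM, all genes unfiltered, scaling by median ratios, quantile normalization, a replicate block, make-up covariates, no variance trend, a fit on T1DE and T1DC alone, and each library left out.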

Additional observations from a re-analysis of the deposited data

Results flagged for a closer look

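The PM effect on Ccdc71, a gene for a coiled-coil protein of which little is known (chromosome 9, 108452502 to 108465946, GRCm38), differed between T1D and ND lungs by -0.695 on the log2 scale (SE 0.09, limma adjusted p = 0.0272). It was at 12.21, 10.71 and 10.97 FPKM in T1DE, against 16.6, 16.2 and 16.1 FPKM in T1DC, and at 16.1, 15.9 and 16.5 FPKM in NDE, against 14.2, 14.1 and 13.5 FPKM in NDC. The T1DE libraries were thus below all other lungs, and the direction in ND was the opposite. Within T1D the change was -0.49 (adjusted p = 0.00873), under the fold threshold, and from DIO it differed by -0.49 (SE 0.09, adjusted p = 0.27).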

How the results depend on the processing

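The count of 23 genes called for T1DE against T1DC became 12 with no filter on low values, 13 after quantile normalization, 199 with the muscle and squamous covariate, 38 with no fold threshold, and 0 both with 3 make-up covariates and in the fit on T1DE and T1DC alone; with 1 library left out it ran from 0 to 31. The 1 gene called for T1D minus ND became 0 under median-ratio scaling, quantile normalization and 3 covariates, 2 with that muscle and squamous term, 4 with no variance trend, and ran from 0 to 5 with 1 library left out; T1D minus DIO ran from 0 to 1. The cause was not tested, except that a fit on 6 libraries has fewer degrees of freedom. With the replicate number as a block 19 genes were called in T1D (14 of the 23 among them) and 7 in T1D minus ND. The numbers share no stated animal or batch, and same-numbered T1DE and T1DC libraries deviated from their group means with correlations of -0.23, 0.13 and -0.11, so the block pairs nothing known. All 23 called genes kept their direction under every alternative, which for most of them was fixed in advance. With no filter, a replicate block, no variance trend or the T1D libraries alone, the fold changes of the 23 stayed as they were. Leaving out 1 library could not turn a sign, because the T1DE and T1DC libraries of these genes did not overlap. Of 104 named genes 6 had a sign that turned, in 15 of 2808 values: Cryab (-0.074) and Ahr (0.51) with 3 covariates, and with 1 library left out Hspb1 (-0.13 to 0.21), Ubb (-0.10 to 0.031), Hspbp1 (-0.14 to 0.041), Adgre1 (-0.21 to 0.41) and Ahr (-0.26 to 0.10). FPKM written to 2 decimals limits genes under about 1 FPKM, and 3 libraries a group, 1 of them unlike the others in genes at 0, limit the rest.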

Other observations

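Genes without introns had lower levels in T1DE. Over the 249 tested genes with 1 exon the median log2 fold change was -0.14, and 32.1% were higher in T1DE; over the 614 genes with 2 exons the median was -0.063, with 39.9% higher. Genes with over 5 exons had a median of -0.0014, with 49.6% higher. For the 1-exon genes the medians were -0.031 in ND and -0.029 in DIO lungs. Of the called genes, Hexim1 (higher) and Tbcc and Wdr5b (lower) have 1 exon.

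A further 15 genes had a limma adjusted p under 0.05 and a fold under 1.5, chosen for naming after their values were seen. Among them were Wac (log2 fold change 0.37, limma adjusted p = 0.0356), Cpsf6, a subunit of a cleavage factor that sets the 3′ end of mRNA (0.49, adjusted p = 0.0483), and Cdc25a, a phosphatase that activates cyclin-dependent kinases (0.45, adjusted p = 0.0483). Zfp105 (-0.56, adjusted p = 0.00955) and Commd5 (-0.54, adjusted p = 0.0485) were lower.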
